A study of Mus musculus with 4 samples.

Results

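Methylation of histone H3 at lysine 9 (H3K9) marks silent chromatin, and in mouse embryonic stem (ES) cells it holds down retroelements and germline genes. Setdb1, with its cofactor Atf7ip, writes the trimethyl form along chromosome arms. Ehmt1 (GLP) and Ehmt2 (G9a) work as a heterodimer that writes the mono- and dimethyl forms, and Suv39h1 and Suv39h2 write the trimethyl form at pericentric heterochromatin. The HP1 proteins Cbx5 (HP1alpha), Cbx1 (HP1beta) and Cbx3 (HP1gamma) read the methylated lysine through a chromodomain. The mRNA levels of these 9 genes, 5 methyltransferases with the cofactor Atf7ip and 3 HP1 genes, were followed after knockdown of Atad2, a bromodomain ATPase of chromatin. The genes were taken from a list of names, and all 9 had at least 1 named transcript row among the 21143 genes for which FPKM (sequenced fragments per kilobase of a transcript after scaling for library size) could be summed.

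RNA was sequenced from 46C mouse ES cells that carry a TAP tag on the endogenous Atad2 gene, from a single chosen clone, grown with LIF and serum on gelatin. The 2 si-ctrl libraries came from cells transfected with a scrambled siRNA and the 2 si-Atad2 libraries from cells transfected with anti-Atad2 siRNA, and the tagged allele is shared by all 4 libraries. The study used a pair of active siRNAs, and the paper reports repeat sequencing of each RNA sample. The labels do not state which siRNA a library received, nor whether the replicates of a condition were separate transfections. These replicates may therefore be the same RNA sequenced again. The p-values, and whether the conditions overlap, thus reflect only the spread between these libraries, which may be technical. The authors' tables set si-Atad2 1 against si-ctrl 1 (pair 1) and si-Atad2 2 against si-ctrl 2 (pair 2), and the depth of the libraries is unknown because the tables hold FPKM without counts.

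The targeted gene itself was low in the si-Atad2 libraries. Atad2 stood at 34.1 and 36.0 FPKM in si-ctrl 1 and 2 and at 10.1 and 13.0 FPKM in si-Atad2 1 and 2, which is 29.6% and 36.2% of the control of the same pair. Its mean log2 ratio, log2((si-Atad2 FPKM + 1)/(si-ctrl FPKM + 1)), was -1.53 (SE 0.0775, limma on the paired ratios of all genes, Benjamini-Hochberg adjusted p = 3.54e-05, lower in 2 of 2 pairs). Of the 10 ES cell markers examined, 9 had a named row, and these lay between 49.1 and 1013 FPKM, with 0 of 9 passing the adjusted threshold in limma. Pou5f1, Dppa5a, Utf1 and Sall4 had an unadjusted p under 0.05, as did 15.9% of all genes tested, and all 4 were lower in si-Atad2, with log2 ratios from -0.16 to -0.13. Sox2 and Tdgf1 went the other way, with mean log2 ratios of 0.043 and 0.088. The 6 measured fibroblast markers summed to between 7.18 and 8.51 FPKM per library, most of it from Thy1, while Dcn, Col3a1 and Postn were below 0.03 FPKM in all 4 libraries. Markers of primitive endoderm, neural precursors, mesoderm and trophoblast did not exceed 3.78 FPKM in any library, and the summed level of each of these lists overlapped between the conditions or, for neural precursors, was 6.68 and 7.14 FPKM in si-ctrl against 6.60 and 5.99 FPKM in si-Atad2. In bulk RNA, fewer cells of a type and less RNA per cell cannot be told apart.

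The 2 sequences that separate transcript forms of these enzymes are shown because the deposited values are per transcript and 2 of the genes have forms that differ by a single exon. Capitals mark the exon that is present in 1 form and skipped in the other, and lower case marks 20 bases of the neighbouring exons, 5′ to 3′ on the strand of the gene, read from GENCODE vM21 transcripts of GRCm38. The Ehmt2 exon, exon 10 of 28, has 102 bases at chr17:34905610-34905711 (+ strand) and is wholly coding, and it is a known cassette exon of G9a that adds 34 residues without shifting the frame. The Suv39h2 exon, exon 2 of 6, has 146 bases at chr2:3472502-3472647 (- strand), is wholly coding in the form that contains it, and is not a whole number of codons.
Ehmt2 exon 10: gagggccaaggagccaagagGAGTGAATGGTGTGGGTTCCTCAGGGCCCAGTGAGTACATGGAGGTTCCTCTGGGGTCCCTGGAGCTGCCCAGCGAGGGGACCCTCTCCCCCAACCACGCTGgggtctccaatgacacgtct
Suv39h2 exon 2: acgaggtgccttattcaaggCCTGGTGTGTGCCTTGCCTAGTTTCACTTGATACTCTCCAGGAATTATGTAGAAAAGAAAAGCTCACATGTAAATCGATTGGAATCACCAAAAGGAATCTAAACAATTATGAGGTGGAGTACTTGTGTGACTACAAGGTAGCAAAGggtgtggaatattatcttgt

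All 9 genes were expressed in the control ES cells, but over a 26.1-fold range of mean FPKM. Cbx1 was the highest, at a mean of 217 FPKM in si-ctrl, 4.15 times the level of Cbx5 (52.2 FPKM), which was followed by Ehmt2 (44.2 FPKM), Setdb1 (27.5 FPKM), Atf7ip (21.5 FPKM) and Ehmt1 (18.9 FPKM). Cbx3 (9.44 FPKM), Suv39h1 (9.16 FPKM) and Suv39h2 (8.29 FPKM) lay close together at the bottom. Among all genes summed, these means fell between the 72.4th percentile for Suv39h2 and the 99.4th for Cbx1. The ranges over the 4 libraries of neighbours in this order did not overlap, except those of Cbx3 and Suv39h1, where Cbx3 was the higher in 1 of 4 libraries. The levels are per length of transcript, since FPKM divides by it, and the plot of levels by library shows them on a log axis.

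**Figure D1:**
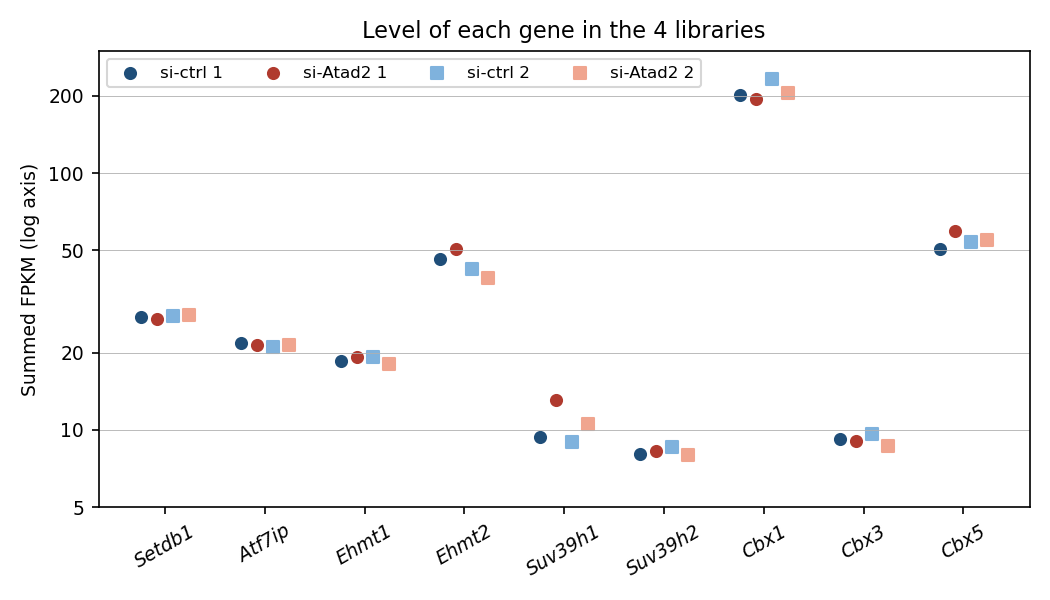
Summed FPKM of each gene (log axis) in the 4 libraries, with circles for pair 1, squares for pair 2, blue for si-ctrl and red for si-Atad2. Cbx1 stands near 200 FPKM in every library, and Suv39h1 is higher in both si-Atad2 libraries (13.0 and 10.5 FPKM) than in both si-ctrl libraries (9.38 and 8.94 FPKM). The 4 marks of Setdb1 lie at nearly the same level, as do the 4 marks of Atf7ip at a lower level.

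Knockdown of Atad2 left 0 of these 9 genes past the adjusted threshold of 0.05 in the limma test, and 1 of them, Suv39h1, had an unadjusted p under 0.05. Among the 10625 genes tested, those with a mean of at least 1 FPKM, 1.56% passed the adjusted threshold, 1.26% as higher and 0.301% as lower in si-Atad2, and 15.9% (1687 genes) had an unadjusted p under 0.05. The median log2 ratio of the 9 genes was -0.0036, beside -0.0087 over all genes tested, and the median size of the ratio without its sign was 0.028, beside 0.076. Suv39h1 and Cbx5 lay higher in both si-Atad2 libraries than in both si-ctrl libraries, as did 22.2% of all genes tested, and Cbx3 lay lower in both, as did 26.9%. In the other 6 genes the conditions overlapped, and 5 of the 9 had ratios of opposite sign in the pairs. The plot of ratios by pair gives each gene's interval.

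**Figure D2:**
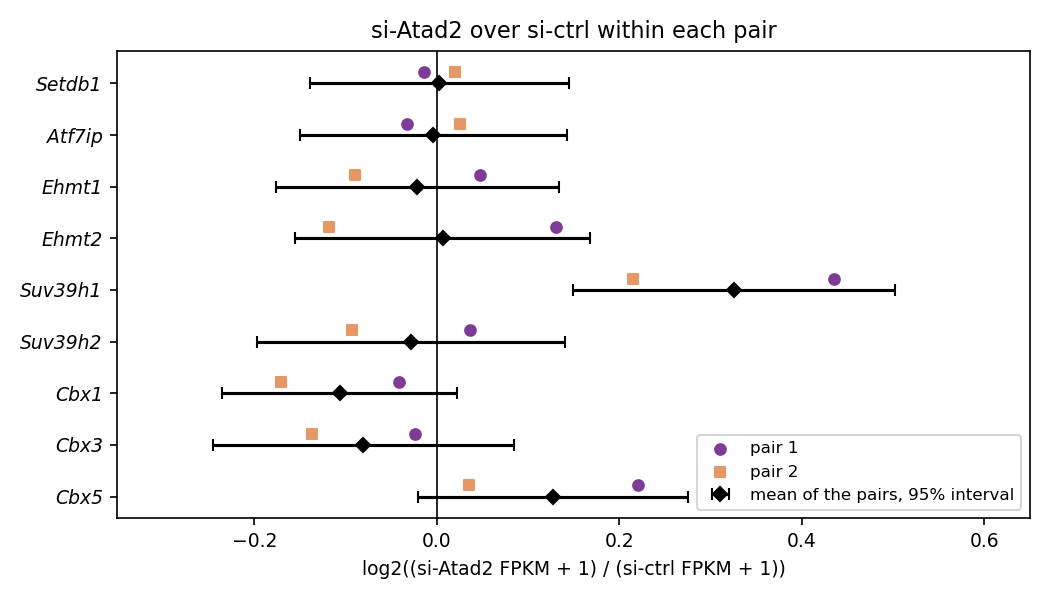
Log2 ratio of si-Atad2 over si-ctrl FPKM (1 FPKM added to each) in pair 1 (circles) and pair 2 (squares), with the mean and its 95% interval from limma (diamonds and bars). The interval of Suv39h1 runs from 0.15 to 0.50 and those of the other 8 genes include 0.

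Setdb1 and Atf7ip, which act in 1 complex, had the mean ratios closest to 0 among the 9 genes. Setdb1 (chromosome 3, 95323525 to 95357202, - strand, GENCODE vM21 on GRCm38) read 27.4 and 27.7 FPKM in si-ctrl 1 and 2 and 27.1 and 28.1 FPKM in si-Atad2 1 and 2, with a mean log2 ratio of 0.0030 (SE 0.0633, limma adjusted p = 0.990). Its 95% interval corresponds to 0.908 to 1.11 times the control. Atf7ip (chromosome 6, 136506167 to 136610862, + strand) stayed between 21.1 and 21.9 FPKM in all 4 libraries, and its interval was 0.901 to 1.10 times the control (limma adjusted p = 0.987). For both genes the spread between the si-ctrl libraries (SD 0.188 and 0.571 FPKM, n = 2) was larger than the difference between the condition means. The ratio of Setdb1 to Atf7ip FPKM was 1.25 and 1.31 in si-ctrl and 1.27 and 1.31 in si-Atad2.

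A single transcript form carried most of the signal of each gene. The Setdb1 row of 4622 bases held between 83.1% and 88.6% of the summed FPKM, and the Atf7ip row of 4527 bases held between 90.8% and 92.1%, with the conditions overlapping in both. Limits come from neighbours: Setdb1 shares its locus in the tables with Cers2, whose transcript ends overlap it, and an unspliced row of 2513 bases in the last exon of Atf7ip, at between 6.70 and 7.49 FPKM, was not counted with the gene.

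Neither Ehmt1 nor Ehmt2 had a ratio of the same sign in both pairs. Ehmt1 (chromosome 2, 24789928 to 24919614, - strand) read 18.6 and 19.2 FPKM in si-ctrl and 19.2 and 18.0 FPKM in si-Atad2, with a mean log2 ratio of -0.021 (SE 0.0693, limma adjusted p = 0.913). Ehmt2 (chromosome 17, 34898469 to 34914052, + strand) read 46.1 and 42.3 FPKM in si-ctrl and 50.6 and 39.0 FPKM in si-Atad2. Here the pairs pointed in opposite directions, with a log2 ratio of 0.13 in pair 1 and -0.12 in pair 2, and the si-Atad2 libraries differed from each other by more (0.37 on the log2 scale) than either did from its control. The mean log2 ratio of Ehmt2 was 0.0064 (SE 0.0721, limma adjusted p = 0.978), and its 95% interval corresponds to 0.898 to 1.12 times the control. A row of 212 bases added 2.07 and 5.42 FPKM to Ehmt2 in si-ctrl 1 and si-Atad2 1 and none in pair 2, and without it the mean log2 ratio was -0.04. The ratio of Ehmt2 to Ehmt1 FPKM was 2.48 and 2.21 in si-ctrl and 2.63 and 2.17 in si-Atad2, which overlap.

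The forms of Ehmt2 were further compared by the 102-base exon printed above, a comparison chosen after the values were seen. The 3849-base row, which contains the exon, read 14.2 and 14.4 FPKM in si-ctrl and 13.3 and 11.7 FPKM in si-Atad2, while the 3747-base row without it read 19.3 and 18.2 FPKM in si-ctrl and 20.9 and 18.0 FPKM in si-Atad2. The share of the exon-containing row in the sum of both was 42.4% and 44.1% in si-ctrl and 38.9% and 39.5% in si-Atad2, so that both si-Atad2 libraries lay below both si-ctrl libraries, with differences of -3.52 percentage points in pair 1 and -4.66 in pair 2. An exact two-sided permutation test on 2 against 2 libraries gave p = 0.33, the smallest it allows, and cannot pass 0.05. A further pair of rows whose lengths also differ by 102 bases, 4020 and 3918, did not repeat this order. The share of the longer row was 43.8% and 36.8% in si-ctrl and 40.1% and 40.5% in si-Atad2. The 4020-base row read 2.58 and 1.98 FPKM in si-ctrl and 2.94 and 2.68 FPKM in si-Atad2. The 3918-base row read 3.31 and 3.41 FPKM in si-ctrl and 4.39 and 3.94 FPKM in si-Atad2, so both rows were higher in both si-Atad2 libraries. Over both pairs of rows together, the share of the longer rows was 42.6% and 43.1% in si-ctrl and 39.1% and 39.6% in si-Atad2, lower in both si-Atad2 libraries. This pooled share includes the rows of 3849 and 3747 bases, which hold most of the FPKM, so it is not a separate result. A short row of 1080 bases at the same locus was at 4.36 and 4.05 FPKM in si-ctrl and 3.11 and 2.30 FPKM in si-Atad2.

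Suv39h1 had the largest difference among the 9 genes. It lies on chromosome X (8061171 to 8074760, - strand) and read 9.38 and 8.94 FPKM in si-ctrl 1 and 2 and 13.0 and 10.5 FPKM in si-Atad2 1 and 2. Both si-Atad2 libraries were above both si-ctrl libraries, at 139% of control in pair 1 and 118% in pair 2. The mean log2 ratio was 0.33 (SE 0.0789, 95% interval 0.15 to 0.50), with an unadjusted p of 0.00215 and an adjusted p of 0.0829 in the limma fit, so that the difference did not pass the threshold of 0.05. The si-Atad2 libraries differed from each other by 0.28 on the log2 scale, nearly as much as the mean ratio, while the si-ctrl libraries differed by 0.062. The adjusted p ranged from 0.0460 to 0.548 over 14 fits, and it was under 0.05 in 2 of them, at 0.0477 after rescaling to TPM (values rescaled to 1 common total per library, with the filter and pseudocount at 1 TPM) and at 0.0460 after removal of a trend with GC content, in both with the pairs kept as a block.

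The Suv39h1 signal was split over rows of the locus, and the plot of these rows shows where the difference lay. In pair 1 the 3116-base row read 5.03 FPKM in the control, with limits of 4.54 and 5.51 in the authors' 95% interval, against 8.03 FPKM after knockdown, with limits of 7.44 and 8.62, so that the intervals do not meet. In pair 2 it read 5.32 FPKM (limits 4.82 and 5.82) against 6.14 FPKM (limits 5.60 and 6.68), and the intervals overlap. The 3097-base row read 2.23 and 1.71 FPKM in si-ctrl and 2.89 and 2.73 FPKM in si-Atad2, and the 1166-base row did not follow, at 2.13 and 1.91 FPKM in si-ctrl and 2.12 and 1.68 FPKM in si-Atad2. These intervals describe the estimate within a library and not the spread between replicates. The last row of the locus, of 1181 bases, matches the annotated antisense gene Gm14820, whose exons overlap those of Suv39h1. It read 5.83 and 6.11 FPKM in si-ctrl and 4.20 and 6.51 FPKM in si-Atad2, so that in pair 1 it was lower where Suv39h1 was higher. The use of strand is not stated, and reads of the overlap cannot be told apart. With this row added to Suv39h1 the mean log2 ratio was 0.17 (limma adjusted p = 0.255).

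**Figure D3:**
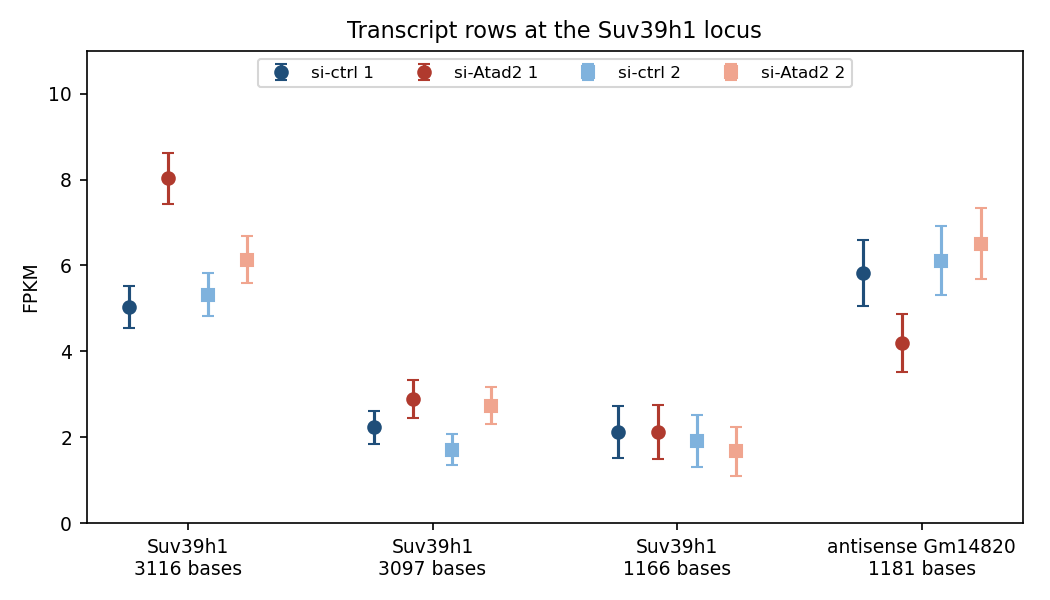
FPKM of the 4 transcript rows at the Suv39h1 locus in each library, with the authors' 95% interval as bars. The 3116-base row has its highest value, 8.03 FPKM, in si-Atad2 1, the library in which the antisense row has its lowest, 4.20 FPKM.

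Suv39h2, the relative of Suv39h1, overlapped between the conditions. It lies on chromosome 2 (3455815 to 3475031, - strand), tail to tail with Dclre1c, and read 8.02 and 8.57 FPKM in si-ctrl and 8.24 and 7.97 FPKM in si-Atad2, with a mean log2 ratio of -0.028 (SE 0.0754, limma adjusted p = 0.893). The ratio of Suv39h1 to Suv39h2 FPKM was 1.17 and 1.04 in si-ctrl and 1.58 and 1.32 in si-Atad2. The values did not overlap between the conditions, and the exact permutation p was 0.33, the smallest possible with 2 against 2 libraries. By form, the row without the 146-base exon made up 29.0% and 21.2% of the Suv39h2 signal in si-ctrl and 29.0% and 34.6% in si-Atad2. The difference in this share lay in pair 2, where the form without the exon read 1.81 and 2.76 FPKM and the form with it 6.74 and 5.21 FPKM, and the shares in pair 1 differed by 0.090 percentage points.

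Among the readers, Cbx1 and Cbx5 had ratios of opposite sign, and neither passed the threshold. Cbx1 (chromosome 11, 96789127 to 96808640, + strand) read 201 and 232 FPKM in si-ctrl and 195 and 206 FPKM in si-Atad2, with a mean log2 ratio of -0.11 (SE 0.0576, limma adjusted p = 0.421). The highest si-Atad2 value lay above the lowest si-ctrl value, and the si-ctrl libraries differed by 0.21 on the log2 scale, more than the mean ratio. Cbx5 (chromosome 15, 103191544 to 103239816, - strand) read 50.8 and 53.7 FPKM in si-ctrl and 59.3 and 55.0 FPKM in si-Atad2, with a mean log2 ratio of 0.13 (SE 0.0661, limma adjusted p = 0.395). Its groups did not overlap, but the ratio was 0.22 in pair 1 and 0.035 in pair 2. The 8801-base row that carries most of the Cbx5 signal read 40.9 and 41.6 FPKM in si-ctrl and 46.2 and 41.5 FPKM in si-Atad2. Of the Cbx1 rows, the 1274-base form was lower in both si-Atad2 libraries (69.1 and 74.5 FPKM) than in both si-ctrl libraries (78.0 and 80.7 FPKM), whereas the 947-base form overlapped (108 and 138 FPKM against 114 and 119 FPKM).

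Cbx3, which is found over transcribed genes as well as in heterochromatin, was measured through a single row of 1803 bases. The gene (chromosome 6, 51470360 to 51483704, + strand) read 9.24 and 9.64 FPKM in si-ctrl and 9.07 and 8.68 FPKM in si-Atad2, with a mean log2 ratio of -0.081 (SE 0.0738, limma adjusted p = 0.644). The conditions did not overlap, with a gap that was smaller than the spread within either condition. Its level is the least certain of the 9, because 13 other annotated genes, 11 of them processed pseudogenes, carry stretches of at least 300 bases that match its transcript at 90% identity or more, up to 99.8%, and how reads with several matches were treated is not given in the sources used here. One of them, the lincRNA gene Gm49164 (chromosome 14, 73909285 to 73956061), has a row of 1244 bases of which 608 match Cbx3 at 99.8% identity, and this row read 9.15 and 9.14 FPKM in si-ctrl, close to Cbx3 itself, with log2 ratios of 0.018 and -0.020 in the pairs. Summed with that row, Cbx3 would stand at 18.6 FPKM in si-ctrl, with a range over the 4 libraries that overlaps that of Ehmt1, and at log2 ratios of -0.0031 and -0.083 in the pairs. By the same measure Cbx1 had 1 such pseudogene, Suv39h1 had its antisense gene, and the other 6 genes had none.

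Within the HP1 family, the share of Cbx5 was higher and that of Cbx1 lower in both si-Atad2 libraries. Cbx5 made up 19.5% and 18.2% of the sum of the 3 genes in si-ctrl and 22.5% and 20.4% in si-Atad2, a difference of 3.05 percentage points in pair 1 and 2.22 in pair 2. Cbx1 made up 77.0% and 78.6% in si-ctrl and 74.1% and 76.4% in si-Atad2. Both shares separated the conditions, with an exact permutation p of 0.33 for each, the smallest this design allows. Since Cbx3 holds little of the sum, the Cbx1 and Cbx5 shares nearly mirror each other and are not separate results. The Cbx3 share stayed between 3.21% and 3.54% and overlapped, as did the sum of the 3 genes, at 261 and 295 FPKM in si-ctrl and 264 and 270 FPKM in si-Atad2. These are shares of mRNA estimates per length, not of protein. They count Cbx3 by its single row, without the nearly identical Gm49164 row, and were not computed with that row added. The plot of shares sets the Cbx5 share beside those of the Ehmt2 and Suv39h2 forms.

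**Figure D4:**
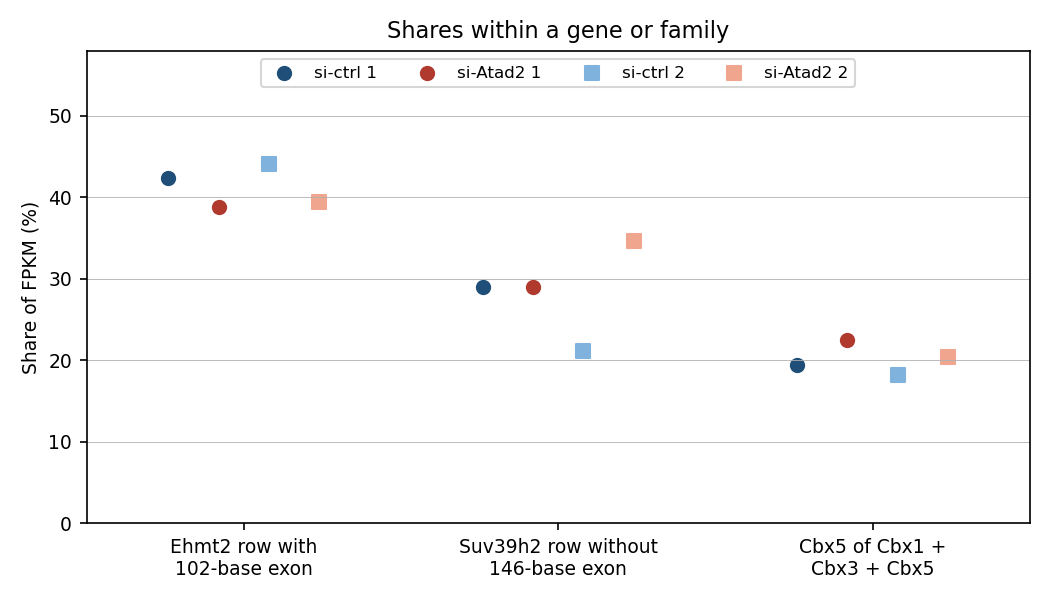
Share of FPKM (%) in each library for the Ehmt2 row with the 102-base exon (of the 3849- and 3747-base rows), the Suv39h2 row without the 146-base exon and Cbx5 (of Cbx1, Cbx3 and Cbx5). The Ehmt2 share is lower and the Cbx5 share higher in both si-Atad2 libraries than in both si-ctrl libraries, and the Suv39h2 share is 29.0% in both libraries of pair 1.

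The genes that work with these enzymes were read from 4 lists. Of the partners of the methyltransferases, the HUSH complex and the H4K20 methyltransferases that act downstream of HP1, 13 of 15 genes were tested and 0 passed the adjusted threshold in limma, with 2 at an unadjusted p under 0.05 (15.9% of all genes tested) and a median log2 ratio of 0.020. Both si-Atad2 libraries lay above both si-ctrl libraries in 3 of the 13, beside 22.2% of all genes tested, and below in 2, beside 26.9%. Atf7ip2, a relative of Atf7ip, read 3.92 and 4.28 FPKM in si-ctrl and 5.21 and 5.26 FPKM in si-Atad2 (log2 ratio 0.29, SE 0.0784, limma adjusted p = 0.112). Setdb2, a relative of Setdb1, read 3.75 and 4.20 FPKM in si-ctrl and 4.93 and 4.82 FPKM in si-Atad2 (log2 ratio 0.24, limma adjusted p = 0.190). In both of these genes the conditions did not overlap. Morc2a, an ATPase that works with HUSH, had a log2 ratio of -0.099 (limma adjusted p = 0.492). Trim28 (KAP1), which brings Setdb1 to its sites through KRAB zinc finger proteins, was the most abundant gene of the lists, at 641 and 636 FPKM in si-ctrl and 545 and 644 FPKM in si-Atad2.

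Of the H3K9 demethylases, 10 of 11 were tested and 0 passed in limma. An unadjusted p under 0.05 was found in 2, beside 15.9% of all genes tested, and the median log2 ratio was 0.029. The si-Atad2 libraries lay above both controls in 2 of the 10, beside 22.2% of all genes tested, and below in 3, beside 26.9%. Phf8, an X-linked demethylase of H3K9 and H4K20, read 12.7 FPKM in both si-ctrl libraries and 7.96 and 12.1 FPKM in si-Atad2, so that its mean log2 ratio of -0.34 (SE 0.112, limma adjusted p = 0.184) came from -0.61 in pair 1 and -0.065 in pair 2. Kdm3b, a demethylase of mono- and dimethylated H3K9, read 14.7 and 15.1 FPKM in si-ctrl and 16.1 and 17.3 FPKM in si-Atad2 (log2 ratio 0.16, limma adjusted p = 0.303), and Kdm7a, a demethylase of H3K9 and H3K27, had a log2 ratio of -0.13 (limma adjusted p = 0.438). Kdm1a (LSD1) was the most abundant of this list, with all 4 libraries between 165 and 171 FPKM.

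Of the HP1 partners and other readers of H3K9 methylation, 11 of 14 had named rows (not Chaf1a, Adnp and Lbr) and all 11 were tested. In limma 0 were past the threshold and 1 was at an unadjusted p under 0.05 (15.9% of all genes tested), with a median log2 ratio of -0.065. Both si-Atad2 libraries lay below both si-ctrl libraries in 8 of the 11, beside 26.9% of all genes tested, and above in 0, beside 22.2%. Cdyl, a chromodomain protein that binds methylated H3K9, read 19.0 and 20.4 FPKM in si-ctrl and 16.5 and 18.1 FPKM in si-Atad2 (log2 ratio -0.17, SE 0.0661, limma adjusted p = 0.238). Its relative Cdyl2 had a log2 ratio of -0.12 and Pogz, a zinc finger partner of HP1, one of -0.10 (limma adjusted p = 0.451 and 0.543). The 9 ES cell markers with a named row had a median log2 ratio of -0.069 in the same libraries. Of these, 5 lay below in both si-Atad2 libraries and 1 lay above in both.

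Germline genes formed the last list, and 5 of 9 were tested. These 5 were already expressed in the si-ctrl libraries, so their ratios do not measure the release of silent genes. In limma 0 passed, 2 had an unadjusted p under 0.05, beside 15.9% of all genes tested, and the median log2 ratio was 0.15. Both si-Atad2 libraries lay above both si-ctrl libraries in 3 of the 5, beside 22.2% of all genes tested, and below in 0. Mael, a germline gene of the piRNA pathway, read 15.2 and 16.4 FPKM in si-ctrl and 21.6 and 17.3 FPKM in si-Atad2 (log2 ratio 0.27, SE 0.0935, limma adjusted p = 0.193), most of it from pair 1, where the ratio was 0.48 against 0.069 in pair 2. Tex101, which encodes a germ cell surface protein, was near the expression limit, at 1.11 and 1.01 FPKM in si-ctrl and 1.67 and 1.31 FPKM in si-Atad2 (log2 ratio 0.27, limma adjusted p = 0.175), and Taf7l, a germ cell relative of a TFIID subunit, had a log2 ratio of 0.15 (limma adjusted p = 0.426). Dazl, an RNA-binding protein of germ cells, stayed between 8.89 and 9.21 FPKM in all 4 libraries. The 4 Magea genes stayed below 0.08 FPKM in every library and were not tested.

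**Figure D5:**
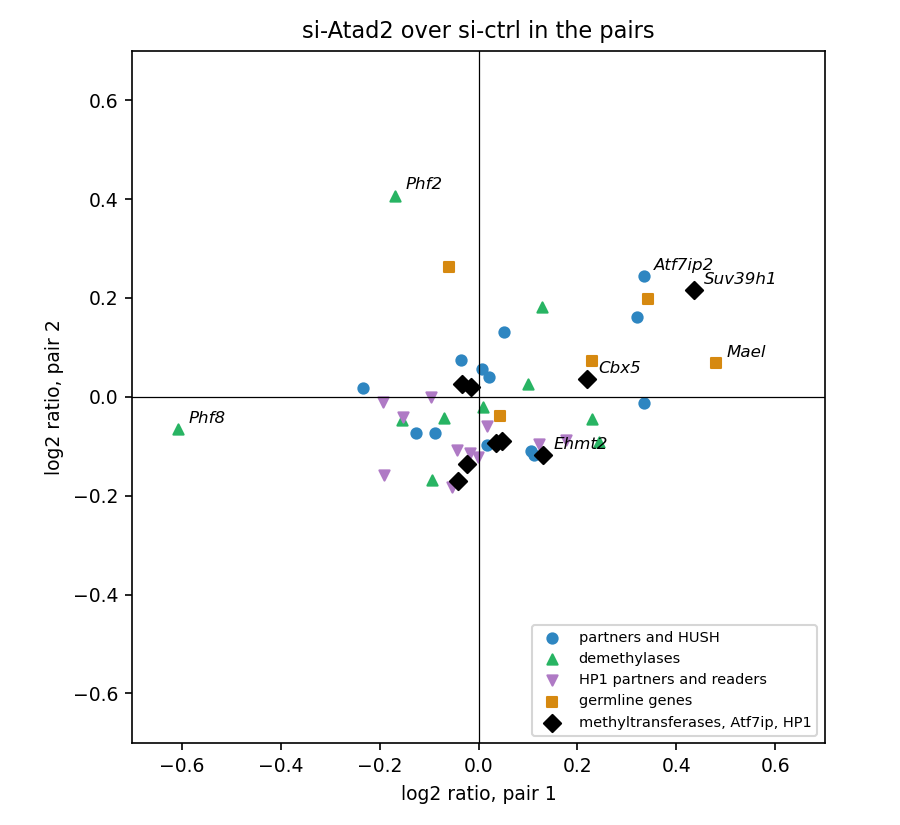
Log2 ratio of si-Atad2 over si-ctrl FPKM in pair 1 (x axis) against pair 2 (y axis) for the tested genes of the 4 lists and for the 9 methyltransferase, Atf7ip and HP1 genes (black diamonds). Suv39h1 is at 0.44 and 0.22, Phf8 at -0.61 and -0.065, and most other genes lie within 0.25 of 0 on both axes.

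The genes with levels most like those of Suv39h1 over the 4 libraries, by Euclidean distance of log2(FPKM + 1), were Ccdc136 (distance 0.13), Mettl8 (0.14) and Litaf (0.14). Ccdc136 read 9.26 and 9.25 FPKM in si-ctrl and 12.2 and 9.91 FPKM in si-Atad2. Like Suv39h1 it was highest in si-Atad2 1, but it was chosen by its nearness over these same values. For Cbx1, the gene with the lowest mean ratio of the 9, they were Rpl14, Top2a and Psma6, at distances of 0.14, 0.15 and 0.16.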

How the data were processed

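RNA-seq of 4 libraries was analysed. The authors made the deposited FPKM values with Cuffdiff, which set libraries of the same number against each other, and give a 95% interval. The labels also name TopHat, and mm9 as genome build, whereas the deposited loci match GRCm38, and the supplement names Bowtie; versions are not given in the sources used here. Transcript tables gave row lengths (another deposited value, in bases). The authors' comparison tables hold fold changes, p-values and q-values and were not used.

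Of 59120 rows, 58400 had status OK in all 4 libraries. Rows were named from GENCODE vM21 by length within 3 bases inside the locus (14821), by length clipped or extended to the locus (12373), by an exon skipped (2) or as the locus's only coding gene (18235); 13689 stayed unnamed. Rows of at least 200 bases were summed per gene (21143 genes). Nearly identical copies were sought with BLAST+ 2.17.0 (300 bases, 90% identity).

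Log2 ratios within each pair, with a pseudocount of 1 FPKM, were tested with limma 3.58.1 in R 4.3.3 (lmFit on the 2 ratios, eBayes with a trend on mean level) for the 10625 genes with a mean of at least 1 FPKM, with p adjusted by Benjamini-Hochberg and called under 0.05. Fold changes on this scale understate those of low genes. The pairing comes from the authors' Cuffdiff runs. Over genes, the departures of libraries that share a number from the mean of their condition were correlated at -0.0072 (Pearson). Shares and ratios were compared with exact two-sided permutation tests. Alternatives were other pseudocounts, filters, row lengths and scalings (TPM, median of ratios), no block, no trend, removal of a GC trend, the highest row alone and each pair left out; the 300-base limit, the antisense row, the Cbx3 copy and, for gene and member counts, the highest row were added after the data were seen.

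The 9 genes and the lists were chosen with earlier results of these data known. Named genes were the 9, Atad2, list genes past the threshold, the 3 tested genes per list with the largest mean ratio of the same sign in both pairs, and the 3 genes nearest in level to the members of highest and lowest ratio. Trim28, Kdm1a, Dazl, the ES cell markers, the Magea genes, Gm49164 and the transcript rows were named after their values were seen.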

Additional observations from a re-analysis of the deposited data

How the results depend on the processing

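Suv39h1, Cbx5, Cbx1 and Cbx3 kept the direction of their mean log2 ratio in the 9, 8, 8 and 8 alternatives that changed its value (the others change only the test), with ranges of 0.17 to 0.44, 0.035 to 0.22, -0.17 to -0.042 and -0.14 to -0.024. Both pairs share a sign in these genes, so neither another pseudocount nor leaving out a pair could reverse the mean. The other genes had pairs of opposite sign, so a single pair had to reverse it. Of the 9 genes, 1 (Suv39h1) passed the threshold after rescaling to TPM (log2 ratio 0.38, limma adjusted p = 0.0477) and 1 (again Suv39h1) after removal of the GC trend with the replicate block (0.32, 0.0460), and 0 in the other 12 fits with a test. Without the replicate block its adjusted p was 0.159. The genes near 0 changed sign: Setdb1 (-0.0042 with median of ratios scaling, -0.0065 with the GC trend removed, -0.014 to 0.020 over single pairs), Ehmt1 (0.012 in TPM, 0.042 by its highest row, -0.089 to 0.047 over single pairs), Ehmt2 (-0.00088 with median of ratios, -0.041 with rows of at least 300 bases, -0.12 to 0.13), Suv39h2 (0.0026 in TPM, -0.093 to 0.036) and Atf7ip (0.030 in TPM, -0.033 to 0.025). In TPM, where the filter and pseudocount of 1 TPM also admit lower genes (12553 tested), the median over the genes of the FPKM fit was 0.023, against -0.0087 in FPKM. Single pairs give a value and no test.

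Over all genes, 166 passed (134 higher, 32 lower), against 0 (0 and 0, with 1962 at an unadjusted p under 0.05) with no filter on low values, 257 (219 and 38) in TPM, 12 (8 and 4) with no minimum row length, 308 (224 and 84) with the GC trend removed, 87 (69 and 18) by the highest row, 119 (100 and 19) without a trend in eBayes and 132 (110 and 22) without the replicate block. The causes of these moves were not tested. Atad2 was -1.53 in the test without a filter (limma adjusted p = 0.501) and passed in the other 13 fits, and single pairs ranged from -1.66 to -1.40. The 4 lists had no call in any of the 14 fits. The HP1 shares and the Suv39h1 to Suv39h2 ratio kept their direction in every alternative run for them, but the row-length limits did not change their values. The shares moved only with the highest row alone and with single pairs, and the ratio also with the antisense row. Single pairs could not reverse them, since both pairs differ in the same direction. The Ehmt2 exon share was run on single pairs alone, which repeats the pair differences given above. Without replicate 1 the difference changed sign for the summed FPKM of the 5 methyltransferases (2.76 to -3.19), Ehmt2 over Ehmt1 (0.054 to -0.040) and Setdb1 over Atf7ip (0.0059 to -0.0052), and without replicate 2 for the summed HP1 FPKM (-11.5 to 2.60). Ehmt2 over Ehmt1 also did so by the highest row (-0.00059) and with rows of at least 300 bases (-0.031). The tables give no counts, so depth limits could not be stated, and 2 libraries per condition allow no exact p below 0.33.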
